A study of Mus musculus with 12 samples.

Results

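Fatty acids enter hepatocytes through membrane proteins, travel through the cytosol bound to small carriers and are trapped as acyl-CoA, and 10 genes of this route were examined in the liver of mice lacking *Phgdh* in hepatocytes. *Phgdh* encodes the first enzyme of serine synthesis from a glycolytic intermediate. The genes were listed by name: the fatty acid binding proteins *Fabp1*, *Fabp2*, *Fabp4*, *Fabp5* and *Fabp7*, the scavenger receptor *Cd36*, the fatty acid transport proteins *Slc27a2*, *Slc27a4* and *Slc27a5*, and the long chain acyl-CoA synthetase *Acsl1*. They had 12 probes on the array, found by RefSeq accession. All 10 genes passed the filter on dim signals and were among the 16915 genes tested.

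Livers came from 12 male C57BL/6 mice, 30 weeks old, on chow with 20% casein, and each mouse had its own single-color Agilent array. The 6 Floxed mice were homozygous for the conditional allele (Phgdh flox/flox), and the 6 LKO mice, their littermates, carried the same alleles together with Cre under the albumin promoter (Alb+/Cre;Phgdh flox/flox). Because this promoter acts in hepatocytes, the other cells of the LKO liver keep the gene. The Floxed group is described without Cre, so an effect of Cre itself cannot be told apart from the deletion, and neither the hour of dissection nor the feeding state at dissection was given in the sources used here.

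Fatty acid binding proteins are a family of small cytosolic carriers that share a barrel fold. FABP1 is the abundant carrier of hepatocytes, FABP2 that of enterocytes, FABP4 that of adipocytes and of some macrophages and endothelial cells, FABP5 a form with wide tissue distribution and FABP7 the brain form. CD36 takes up long chain fatty acids at the plasma membrane. The SLC27 proteins couple uptake to acyl-CoA formation: SLC27A2 activates very long chain fatty acids, SLC27A4 long and very long chain fatty acids, and SLC27A5 also conjugates bile acids to CoA in the liver. ACSL1 is the main long chain acyl-CoA synthetase of liver and fat. Several of these genes are textbook targets of the nuclear receptor PPARα, which fatty acids activate.

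The sequences upstream of *Fabp1*, *Fabp2* and *Cd36* are shown because these genes, with *Fabp4*, varied together from mouse to mouse after quantile normalization, although pairs with *Fabp1* did not under 75th percentile scaling, and because *Fabp2* alone passed the test between genotypes. Each line holds the 250 bases before the transcription start in RefSeq (GRCm38.p6), 5′ to 3′ on the strand of the gene. *Fabp1* lies at chr6:71199629-71199878 on the plus strand, *Fabp2* at chr3:122894822-122895071 on the plus strand and *Cd36* at chr5:17835897-17836146 on the minus strand. Capitals mark matches, on either strand, to the motifs listed after the sequences.
Fabp1: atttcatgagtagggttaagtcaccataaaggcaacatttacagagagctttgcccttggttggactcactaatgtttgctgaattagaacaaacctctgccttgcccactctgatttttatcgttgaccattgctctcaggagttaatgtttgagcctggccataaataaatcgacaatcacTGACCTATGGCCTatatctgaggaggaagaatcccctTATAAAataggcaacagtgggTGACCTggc
Fabp2: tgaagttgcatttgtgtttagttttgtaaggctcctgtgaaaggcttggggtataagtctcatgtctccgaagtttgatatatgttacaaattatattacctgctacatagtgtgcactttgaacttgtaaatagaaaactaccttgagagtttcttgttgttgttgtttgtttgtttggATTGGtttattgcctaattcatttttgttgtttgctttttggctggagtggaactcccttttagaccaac
Cd36: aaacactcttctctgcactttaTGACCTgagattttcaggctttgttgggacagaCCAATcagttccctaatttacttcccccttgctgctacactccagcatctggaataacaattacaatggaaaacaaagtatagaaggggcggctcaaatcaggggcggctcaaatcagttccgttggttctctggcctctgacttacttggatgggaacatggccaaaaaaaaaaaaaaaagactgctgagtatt

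The search covered 6 motifs on both strands. The nuclear receptor element AGGTCA was found in 14% of the 32851 promoter windows of the same length, and the direct repeat, AGGNCA followed after 1 base of any kind by AGGNCA, in 0.338%. TATAAA was found in 12.4%, CCAAT in 33.8%, the sterol regulatory element TCACNCCAC in 1.05% and the E-box CACGTG in 6.02%. The window of *Fabp1* held the direct repeat, which starts at -67 on the opposite strand and overlaps an AGGTCA match. It also held a second AGGTCA match at -9 and TATAAA at -30. That of *Fabp2* held CCAAT at -70 on the opposite strand and no other match, and that of *Cd36* held AGGTCA at -228 on the opposite strand and CCAAT at -195. Windows were at hand for 7 of the 10 genes. *Slc27a2* had an AGGTCA match at -220, and *Fabp7* had AGGTCA at -171 and CCAAT at -126 and -56. The downstream window of *Acsl1* held the sterol regulatory element at -76 and CCAAT at -172 and -49. *Slc27a4* and the upstream window of *Acsl1* had no match. A match describes letters in these windows and no binding.

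Detection was similar across arrays: 21614 to 23913 probes were well above background in Floxed and 22399 to 24252 in LKO, no spot was saturated, and pairwise correlations ran from 0.979 to 0.996. Brightness differed more: the 75th percentile of intensity before normalization ran from 239 in LKO mouse 5 to 473 in Floxed mouse 4. Floxed mice 1 to 4 were on slide 1 and LKO mice 3 to 6 on slide 3, and only slide 2 carried both genotypes, namely Floxed mice 5 and 6 and LKO mice 1 and 2. *Phgdh*, the deleted gene, was lower in LKO by the test (log2 difference -0.48 ± 0.18 SE, limma p = 0.018, Benjamini-Hochberg adjusted p = 0.451, exact permutation p = 0.035, n = 6 per group). Its log2 intensity ran from 4.23 to 4.66 in LKO mice 3 to 6, below all Floxed mice (4.81 to 5.50), but was 5.07 and 5.30 in LKO mice 1 and 2, within the Floxed range. LKO was below the Floxed mouse of the same number in 6 of 6 cases, with differences of -0.12 and -0.19 for mice 1 and 2 and -0.43 to -0.87 for the others. No source used here says that equal numbers mark a litter, and they are not taken as a pairing. The call of *Phgdh* was lost when arrays were scaled to the 75th percentile (-0.34), with no normalization (-0.36) and with slide as a fixed block (-0.055). Whether it lies in the deleted exons is not known here, and a second, dimmer probe was well above background on 4 arrays only, with LKO minus Floxed at 0.30. Values without LKO mice 1 and 2 are therefore given beside a difference of a named gene where they change its call or, for the 10 genes and called genes, its size by over 1.5 times. *Phgdh* itself, by which these arrays were singled out, was then at -0.72 (limma adjusted p = 0.014). Without LKO mice 1 and 2 each slide holds 1 genotype, so slide and genotype cannot be told apart in such values.

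*Fabp2* was the only one of the 10 genes that passed the test, and it was higher in LKO. All 16915 genes were fitted with limma on log2 intensity, quantile normalized, and those with an unadjusted p below 0.05 count as called. Of the 10 genes, 1 was called higher and 0 lower. Of all genes tested, 8.35% were called, 4.92% higher and 3.43% lower, so that 1 in 10 is near the background. With limma p adjusted by Benjamini-Hochberg over all genes, 0 of the 10 genes and 0 of 16915 were called, against 1 and 1413 unadjusted. Adjusted p ran from 0.501 to 0.989 in the 10 genes. Differences were positive for 7 and negative for 3, with a median of 0.10 on the log2 scale against -0.0035 over all genes, of which 48.8% were positive. None of the 10 separated the groups without overlap, as did 0.296% of all genes. With LKO mice 1 and 2 left out, 2 of the 10 were called, *Fabp2* higher and *Slc27a4* lower, while all genes called went from 1413 to 2173.

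**Figure D1:**
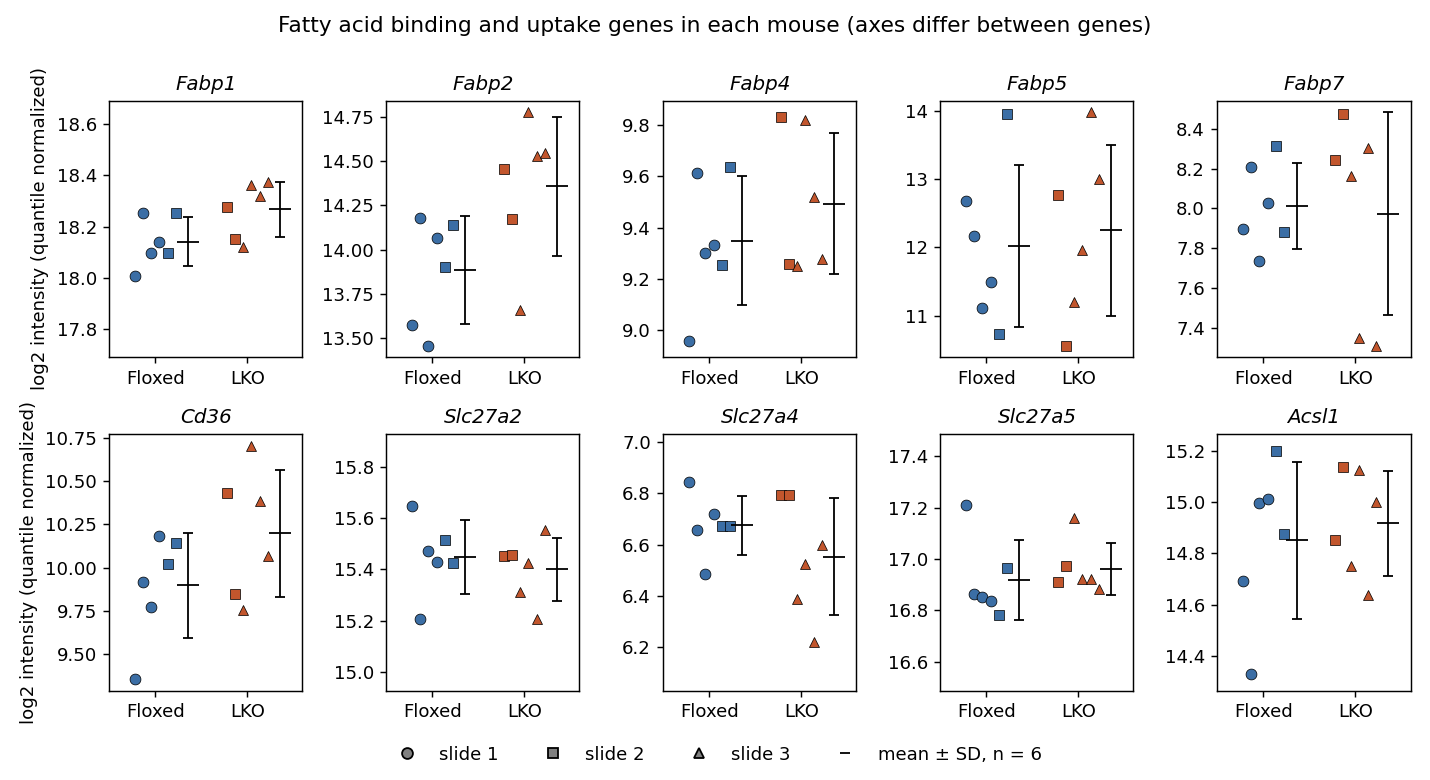
Log2 intensity (quantile normalized) of each of the 10 genes in each mouse, with Floxed on the left and LKO on the right of every panel, marker shape for the slide and the mean ± SD (n = 6) in black. *Fabp2* has 4 LKO mice above all Floxed mice, *Fabp5* spreads over 3.41 log2 units, and the groups overlap for every gene.

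Among the carriers, *Fabp2*, the intestinal form, had the largest difference between genotypes. Its log2 intensity in Floxed mice was 13.46 at the lowest, 13.98 at the median and 14.18 at the highest. The LKO values were 13.66, 14.49 and 14.78. LKO mice 1, 4, 5 and 6 lay above all Floxed mice, Floxed mice 1 and 3 lay below all LKO mice, and LKO mouse 3 lay among the lowest. *Fabp2* rose 1.39-fold in LKO by limma (95% interval 1.05 to 1.83, log2 difference 0.47 ± 0.19 SE, p = 0.025, adjusted p = 0.501), and the exact two-sided permutation test of the means gave p = 0.050. Within slide 2 the difference was 0.29, with both LKO mice above both Floxed mice, and a fixed block for slide gave a limma p of 0.407. The call was lost without Floxed mouse 1, Floxed mouse 3, LKO mouse 4 or LKO mouse 6, one at a time, when limma p lay between 0.052 and 0.061. It kept its call without LKO mice 1 and 2 (0.49, limma adjusted p = 0.384), a fit in which slide and genotype cannot be told apart.

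Signal of an enterocyte gene in liver was set against other genes of the intestine. *Fabp2* itself was well above background on all 12 arrays, at percentile 92.8 of mean intensity among tested genes. Of 10 intestinal epithelium genes, *Cdx2*, *Alpi*, *Muc2*, *Cdh17* and *Reg3g* were well above background on 0 of 12 arrays. *Vil1* was so on 2, *Sis* on 3, and *Lgals4*, *Tff3* and *Apoa4* on all 12. The 3 genes of the list that were tested were *Lgals4* (0.11 ± 0.24 SE, limma adjusted p = 0.975), *Tff3* (-0.82 ± 0.47 SE, limma adjusted p = 0.739) and *Apoa4*. *Apoa4*, an apolipoprotein that mouse liver also makes, was called higher in LKO (0.69 ± 0.30 SE, limma adjusted p = 0.564). The mean deviation of these 3 genes, not scaled by gene, ran from -0.35 to 0.32 in Floxed and from -0.098 to 0.12 in LKO. *Tff3* and *Apoa4*, which differed between genotypes in opposite directions, spanned 3.02 and 2.42 log2 units and weigh most in it.

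*Fabp1*, the liver form, varied within a narrow range. In Floxed mice its log2 intensity was 18.01, 18.12 and 18.25 at the lowest, median and highest, and in LKO mice 18.12, 18.30 and 18.37. Again LKO mice 1, 4, 5 and 6 lay above all Floxed mice, and 3 Floxed mice lay below all LKO mice. The difference of 0.13 ± 0.074 SE did not pass (limma p = 0.117, adjusted p = 0.752; exact permutation p = 0.058), with a 95% interval of 0.98-fold to 1.22-fold, and within slide 2 it was 0.039. *Fabp1* was among the brightest spots of every array, at rank 16 to 41, where quantile normalization assigns nearly fixed values. Its processed intensity before normalization ran from 260364 to 330742, a narrower range than the 75th percentile of the arrays, at 239 to 473.

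*Fabp4*, the adipocyte form, and *Fabp5* did not pass the test. *Fabp4* was at 8.96, 9.32 and 9.64 in Floxed mice and at 9.25, 9.40 and 9.83 in LKO mice. LKO mice 1 and 4 lay above all Floxed mice and Floxed mouse 1 below all LKO mice, with the others mixed (difference 0.14 ± 0.14 SE, limma p = 0.335, adjusted p = 0.926, exact permutation p = 0.353; slide 2, 0.10). Among adipocyte markers, *Lep* and *Slc36a2* were well above background on 0 of 12 arrays, *Plin1* on 1, *Adipoq* on 3 and *Retn* on 11. Mean deviation of the 5 tested adipocyte genes, several of which hepatocytes also express, ran from -0.61 to 0.37 in Floxed and from -0.43 to 0.61 in LKO. None was called, and without LKO mice 1 and 2 *Adig* was (0.89, limma adjusted p = 0.0083). In bulk liver, fewer cells of a type and less RNA per cell cannot be told apart.

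*Fabp5* was the most variable of the 10 genes from mouse to mouse. Its log2 intensity was 10.73, 11.83 and 13.94 in Floxed mice and 10.57, 12.37 and 13.98 in LKO mice, at the lowest, median and highest. Floxed mouse 6 and LKO mouse 5 were the highest of their groups, LKO mouse 2 and Floxed mouse 5 the lowest, and the groups overlapped nearly throughout. The 12 mice spanned 10.6-fold, and the SD within genotype of 1.21 stood at percentile 99.8 of all tested genes. Against this spread the genotype difference of 0.23 ± 0.62 SE had a 95% interval from 0.464-fold to 2.95-fold (limma p = 0.720, adjusted p = 0.976, exact permutation p = 0.742), the widest of the 10. Within slide 2 it was -0.67, and without LKO mice 1 and 2 it was 0.52. For the other 9 genes the interval lay within 2-fold in either direction.

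*Fabp7*, the brain form, was split among LKO mice. Floxed mice ran from 7.74 over a median of 7.96 to 8.31, and LKO mice from 7.31 over 8.20 to 8.48. LKO mice 4 and 6, at 7.35 and 7.31, lay below all Floxed mice, and the other 4 LKO mice were at 8.16 to 8.48. The mean difference was -0.036 ± 0.21 SE (limma p = 0.863, adjusted p = 0.989, exact permutation p = 0.866), within slide 2 it was 0.26, and without LKO mice 1 and 2 it was -0.23. The sign turned when Floxed mouse 2, Floxed mouse 5, LKO mouse 4 or LKO mouse 6 was left out, one at a time (0.0031 to 0.097).

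*Cd36*, the uptake receptor, was higher in LKO on average without passing the test. It was at 9.36, 9.97 and 10.18 in Floxed mice and at 9.76, 10.22 and 10.70 in LKO mice. LKO mice 1, 4 and 5 lay above all Floxed mice and Floxed mouse 1 lay below all LKO mice. The difference was 0.30 ± 0.18 SE, or 1.23-fold with a 95% interval of 0.94 to 1.61 (limma p = 0.119, adjusted p = 0.754; exact permutation p = 0.162). Within slide 2 it was 0.060. Without LKO mouse 3 the limma p was 0.049 with a difference of 0.39.

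The transport proteins and the synthetase differed little between genotypes. *Slc27a2* was at 15.21 to 15.65 in Floxed and 15.21 to 15.55 in LKO, with a difference of -0.048 ± 0.086 SE (limma p = 0.586, adjusted p = 0.972, exact permutation p = 0.561) and a 95% interval of 0.85-fold to 1.10-fold. *Slc27a5* was at 16.78 to 17.21 in Floxed and 16.88 to 17.16 in LKO. All 6 LKO mice lay above the Floxed median, but the difference was only 0.044 ± 0.085 SE (limma p = 0.616, adjusted p = 0.972, exact permutation p = 0.537, interval 0.91-fold to 1.17-fold). Its second probe gave 0.0043. *Acsl1* was at 14.33 to 15.20 in Floxed and 14.64 to 15.14 in LKO, with a difference of 0.066 ± 0.14 SE (limma p = 0.650, adjusted p = 0.975, exact permutation p = 0.688) and an interval of 0.85-fold to 1.30-fold. The second *Acsl1* probe had the opposite sign, -0.10, although both probes followed each other over the 12 mice (r = 0.766). Without LKO mice 1 and 2 the differences of *Slc27a2* and *Acsl1* were -0.075 and 0.028, neither called.

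*Slc27a4*, a transporter of many tissues, was lower in LKO on average without passing the test. Floxed mice were at 6.48, 6.67 and 6.84 and LKO mice at 6.22, 6.56 and 6.79. LKO mice 3 and 5 lay below all Floxed mice, and LKO mice 1 and 2, the pair on slide 2, were the highest of their group. The difference was -0.12 ± 0.11 SE (limma p = 0.271, adjusted p = 0.896, exact permutation p = 0.264) over all arrays and 0.12 within slide 2. Without LKO mice 1 and 2 it was -0.24 and called (limma adjusted p = 0.314), a comparison in which each slide holds 1 genotype and slide and genotype cannot be told apart.

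**Figure D2:**
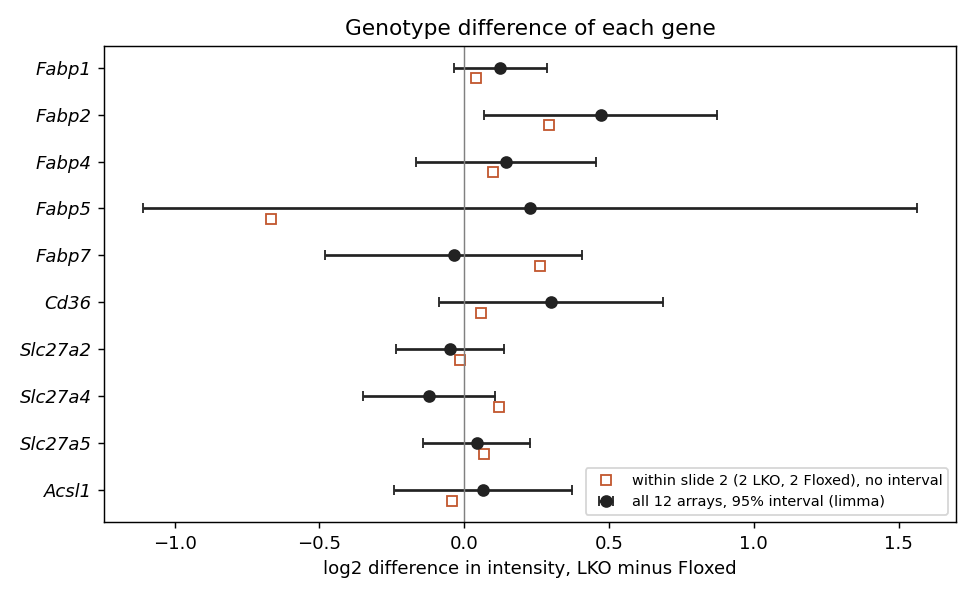
Log2 difference in intensity, LKO minus Floxed, for the 10 genes: filled circles with 95% intervals from limma over all 12 arrays, and open squares for the means within slide 2. The interval lies above 0 for *Fabp2* only, and the slide 2 value has the opposite sign for *Fabp5*, *Fabp7*, *Slc27a4* and *Acsl1*.

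Mice of the same genotype differed together in *Fabp1*, *Fabp2*, *Fabp4* and *Cd36*. Correlations were taken over the 12 mice on deviations from the genotype means, as a description, since the mice share slides and the normalization. Of the 45 pairs, 9 had r above 0.5, and 6 of these joined the 4 genes to each other. *Fabp1* and *Fabp2* were closest (r = 0.88, Spearman rho 0.91), then *Fabp4* and *Cd36* (r = 0.83, rho 0.86) and *Fabp2* and *Cd36* (r = 0.80, rho 0.69). The pairs kept r of 0.80, 0.77 and 0.85 without the 2 mice farthest from the median of the first gene, and 0.89, 0.85 and 0.79 on deviations from the means of each genotype on each slide. In Floxed mice alone the values were 0.82, 0.72 and 0.74, and in LKO mice 0.92, 0.91 and 0.85.

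Which of these pairs hold depends on the scaling. When arrays were scaled to the 75th percentile and not quantile normalized, *Fabp4* and *Cd36* had r = 0.83 and *Fabp2* and *Cd36* 0.73. Pairs with *Fabp1* did not keep theirs: *Fabp1* and *Fabp2* went to 0.28, *Fabp1* and *Fabp4* to 0.0023 and *Fabp1* and *Cd36* to -0.19. Marker lists moved with the quantile normalized values. Within genotype over the 12 mice, the mean of the tested adipocyte genes had r = 0.79 with *Fabp1*, 0.73 with *Fabp2*, 0.66 with *Cd36* and 0.59 with *Fabp4*. This mean is not scaled by gene. *Cidec* and *Cfd* spanned 3.54 and 2.71 log2 units and weigh most in it, against 0.57 to 1.73 for *Car3*, *Lipe* and *Adig*. *Adipoq*, *Plin1* and *Lep* were not tested and are not in it. The mean of the hepatocyte genes, which spanned only -0.090 to 0.062 over the 12 mice, had r = -0.81 with *Fabp1* and -0.63 with *Fabp2*. Their part in the likeness of these genes was not tested.

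**Figure D3:**
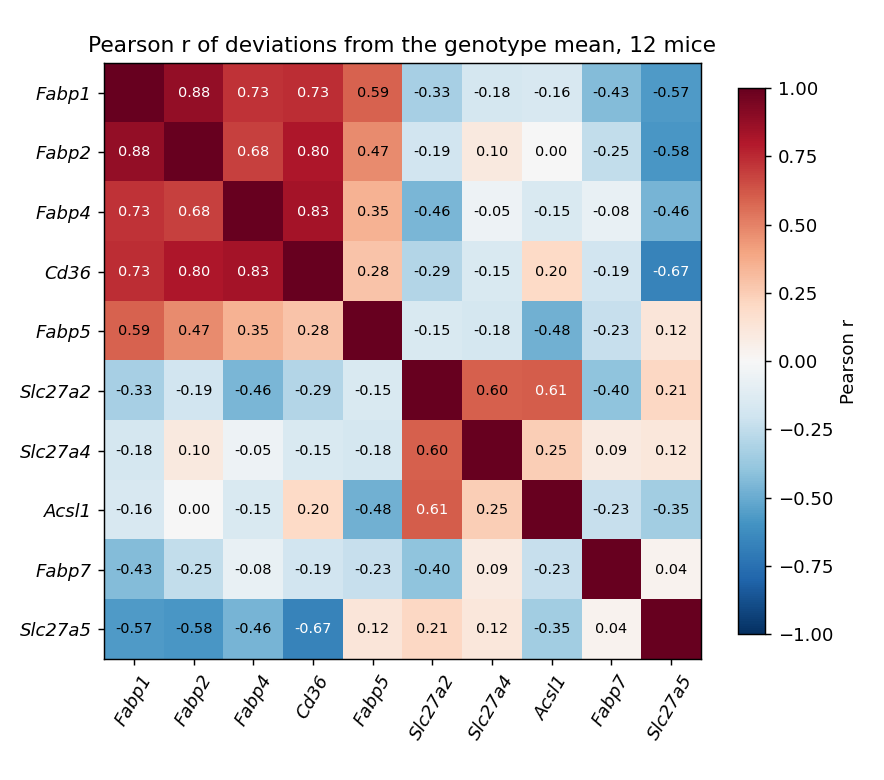
Pearson r of deviations from the genotype mean over 12 mice for each pair of the 10 genes, from blue at -1 to red at 1. *Fabp1*, *Fabp2*, *Fabp4* and *Cd36* form a block of 0.68 to 0.88, *Slc27a2* has 0.61 with *Acsl1* and 0.60 with *Slc27a4*, and *Slc27a5* has -0.67 with *Cd36*.

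Outside this block *Fabp1* went with *Fabp5* (r = 0.59), *Slc27a2* with *Acsl1* (r = 0.61) and *Slc27a4* (r = 0.60), and *Slc27a5* ran against *Cd36* (r = -0.67), *Fabp2* (-0.58) and *Fabp1* (-0.57). Without the 2 mice farthest from the median of the first gene, r was -0.027 for *Slc27a2* and *Acsl1*, -0.030 for *Cd36* and *Slc27a5* and 0.17 for *Fabp1* and *Slc27a5*, so these 3 rest on those mice. It was 0.76 for *Fabp1* and *Fabp5*, 0.52 for *Slc27a2* and *Slc27a4* and -0.60 for *Fabp2* and *Slc27a5*. For the last pair mice were left out by *Fabp2*, which kept the Floxed mouse with the highest *Slc27a5* value (17.21). Spearman rho of *Slc27a5* was only -0.24 with *Fabp2*, -0.27 with *Fabp1* and -0.36 with *Cd36*. *Fabp7* had no r above 0.5 with any of the other genes.

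The genes nearest to each of the 10 were sought among 12510 tested genes with a symbol, by the same r. *Cd36* was followed most closely by *Slc22a29*, an organic anion transporter (r = 0.95), *Ehhadh*, the bifunctional enzyme of peroxisomal β-oxidation (r = 0.94), and *Tmem70* (r = 0.94). *Ehhadh* ran from 11.75 to 12.35 in Floxed and from 11.95 to 12.70 in LKO, its highest value being in LKO mouse 4, where *Cd36* was highest too (difference 0.25, not called, limma adjusted p = 0.726; 0.33 and called without LKO mice 1 and 2). With 75th percentile scaling r of *Cd36* and *Ehhadh* was 0.89. *Ehhadh* is itself a textbook target of PPARα.

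*Fabp5* was followed by *Acss2*, which makes acetyl-CoA from acetate (r = 0.97), *Rdh11*, a retinol dehydrogenase (r = 0.94), and *Prdx3*, a mitochondrial peroxiredoxin (r = 0.93). *Acss2* spanned 8.78-fold over the 12 mice, from 12.08 in Floxed mouse 5 to 14.70 in Floxed mouse 6, and from 12.30 in LKO mouse 2 to 15.21 in LKO mouse 5. These are the same 4 mice as at the ends of *Fabp5*. *Rdh11* spanned 4.37-fold with the same 2 mice at the top. Neither *Acss2* nor *Rdh11* passed the genotype test (limma adjusted p = 0.909 and 0.924). The r of *Fabp5* and *Acss2* was 0.97 under 75th percentile scaling as well.

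**Figure D4:**
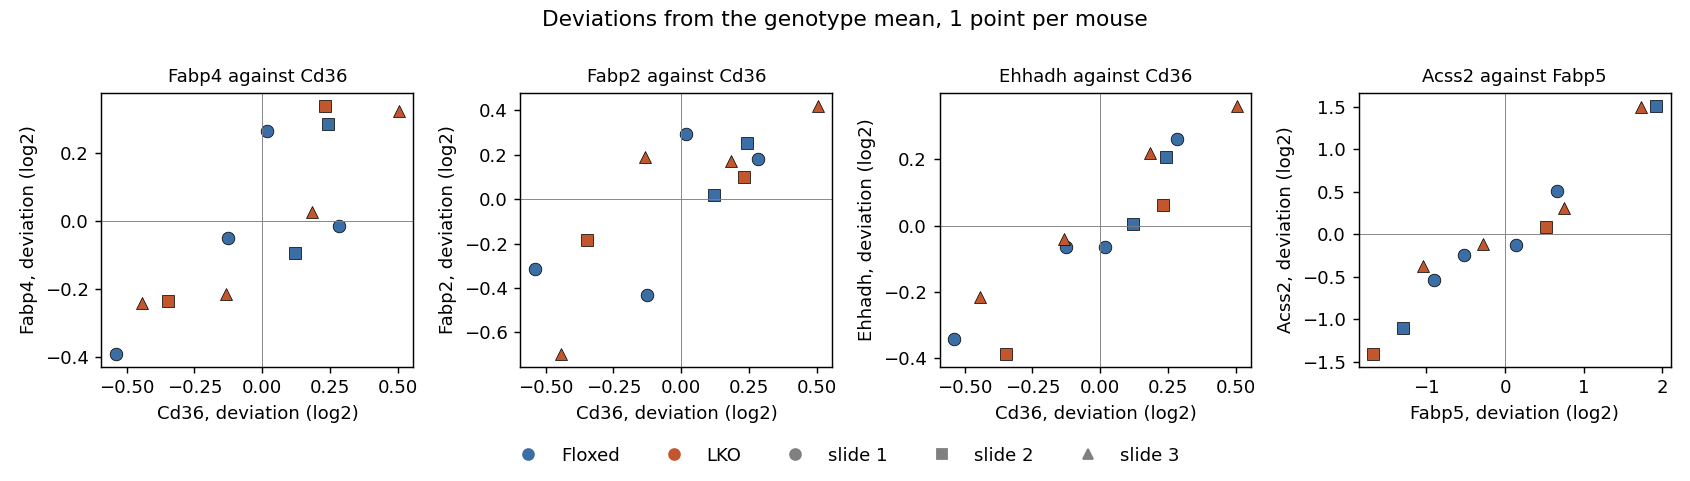
Deviations from the genotype mean (log2) in each of the 12 mice, for *Fabp4*, *Fabp2* and *Ehhadh* against *Cd36* and for *Acss2* against *Fabp5*, with color for genotype and marker shape for slide. Points of both genotypes and all 3 slides rise together in each panel, with r of 0.83, 0.80, 0.94 and 0.97.

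For the other carriers, *Fabp1* was nearest to *H2-Q10*, a class I histocompatibility gene of liver (r = 0.94), *Pcyt2* (r = 0.92) and *Bbox1* (r = 0.91). Of these *H2-Q10* rose in LKO (0.19, limma adjusted p = 0.501). The r of *Fabp1* with its nearest genes is given after quantile normalization only. Its pairs with *Fabp2*, *Fabp4* and *Cd36* did not hold under 75th percentile scaling. *Fabp2* was nearest to *ccdc198* (r = 0.89), *Bbox1* (r = 0.89) and *Postn* (r = 0.88). *Bbox1*, the last enzyme of carnitine synthesis, was thus on both lists. *Fabp4* was nearest to *D5Ertd579e* (r = 0.93), *Pigp* (r = 0.92) and *Adamts15* (r = 0.89). *Fabp7* was nearest to *Gpha2* (r = 0.88), *Meis2* (r = 0.86) and *Hbq1b* (r = 0.85). Of these *Gpha2* was called lower in LKO (-0.58, limma adjusted p = 0.598; without LKO mice 1 and 2, -0.92), and *Meis2* was called lower only without these mice (-0.23).

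*Slc27a2* was nearest to *Pcmtd2* (r = 0.96), *Fga* (r = 0.93) and *Zbtb2* (r = 0.92). *Slc27a4* was nearest to *Kif3a* (r = 0.93), *Nr4a1* (r = 0.92) and *Apold1* (r = 0.91), of which *Nr4a1*, an immediate early nuclear receptor, rose in LKO (0.99, limma adjusted p = 0.541). Without LKO mice 1 and 2 *Nr4a1* was at 0.40 and not called, and *Apold1* at -0.44 and called lower. The highest *Nr4a1* values were those of LKO mice 1 and 2, at 10.12 and 9.38 against 7.26 to 8.59 in Floxed, and these mice were also the highest of the LKO group in *Slc27a4*. *Slc27a5* was nearest to *Slc46a3* (r = 0.91), *Notch3* (r = 0.91) and *Gtf3c1* (r = 0.91), and *Acsl1* to *Brd7* (r = 0.97), *Tex2* (r = 0.96) and *Ywhah* (r = 0.95). The highest of so many values of r are large by their selection and carry no test here.

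Of the rest of the fatty acid route, 67 genes in 7 lists, 53 were tested, 3 were called higher in LKO and 0 lower, or 5.66% against 8.35% of all genes. The median difference was 0.030, with 29 positive and 24 negative. The called genes were *Crabp2*, a carrier of retinoic acid from the same protein family as the FABPs, and *Acot2* and *Acot9*, mitochondrial thioesterases that release fatty acids from CoA. *Crabp2* rose by 0.40 ± 0.17 SE (limma adjusted p = 0.563), with 0.0046 within slide 2. *Acot2* rose by 0.49 ± 0.22 SE (limma adjusted p = 0.584; slide 2, 0.15) and *Acot9* by 0.27 ± 0.11 SE (limma adjusted p = 0.510; slide 2, 0.48). None of the 3 kept its call with every array left out in turn. Without LKO mice 1 and 2, *Acot9* lost its call (0.17, limma adjusted p = 0.615) and *Acot8* and *Acot11* gained one (0.20 and 0.45). *Crabp2* was then at 0.64 (limma adjusted p = 0.030), in a fit where 571 genes of all passed the adjusted threshold and slide could not be told apart from genotype.

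Acyl-CoA thioesterases had 10 of 11 differences positive, with a median of 0.17 and 2 called, against 48.8% positive and 8.35% called among all genes. Within slide 2, 6 of 11 were positive, with a median of 0.027. *Acot1*, the cytosolic form, had 0.43 ± 0.22 SE (limma adjusted p = 0.665) and *Acot3*, a peroxisomal form, 0.52 ± 0.46 SE (limma adjusted p = 0.901), with -0.49 within slide 2. *Them4* was the negative one, at -0.20. The genomic neighbors *Acot1* and *Acot2* are close in sequence, so their probes may share signal. Over the 12 mice, the mean of this list after quantile normalization followed *Cd36* (r = 0.87) and *Fabp2* (r = 0.83) within genotype. This mean is not scaled by gene. *Acot3* and *Acot2* spanned 3.04 and 1.82 log2 units and weigh most in it, against 0.50 to 1.39 for the others. Among the other long chain acyl-CoA synthetases, *Acsl3*, *Acsl4* and *Acsl5* were tested and 0 called, with a median of 0.16 (slide 2, -0.067), and the mean of the 3 followed *Cd36* (r = 0.81).

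The remaining lists held no called gene apart from *Crabp2*. Among the other binding proteins 3 of 10 were tested, and *Fabp6*, *Fabp9* and *Pmp2* were well above background on 0 of 12 arrays and *Fabp3* on 8. For the other transport proteins, 6 of 8 were tested, 2 positive and 4 negative (median -0.055). The acyl-CoA and sterol carriers had 7 tested with a median of 0.040, and the genes for release of fatty acids from lipoproteins had 11 tested with a median of -0.033. Of the nuclear receptors and coactivator, 12 of 12 were tested and 0 called, 4 positive and 8 negative, with *Ppara* at -0.16 ± 0.20 SE, *Ppard* at 0.44 ± 0.24 SE and *Pparg* at 0.16 ± 0.18 SE (limma adjusted p = 0.949, 0.711 and 0.943).

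**Figure D5:**
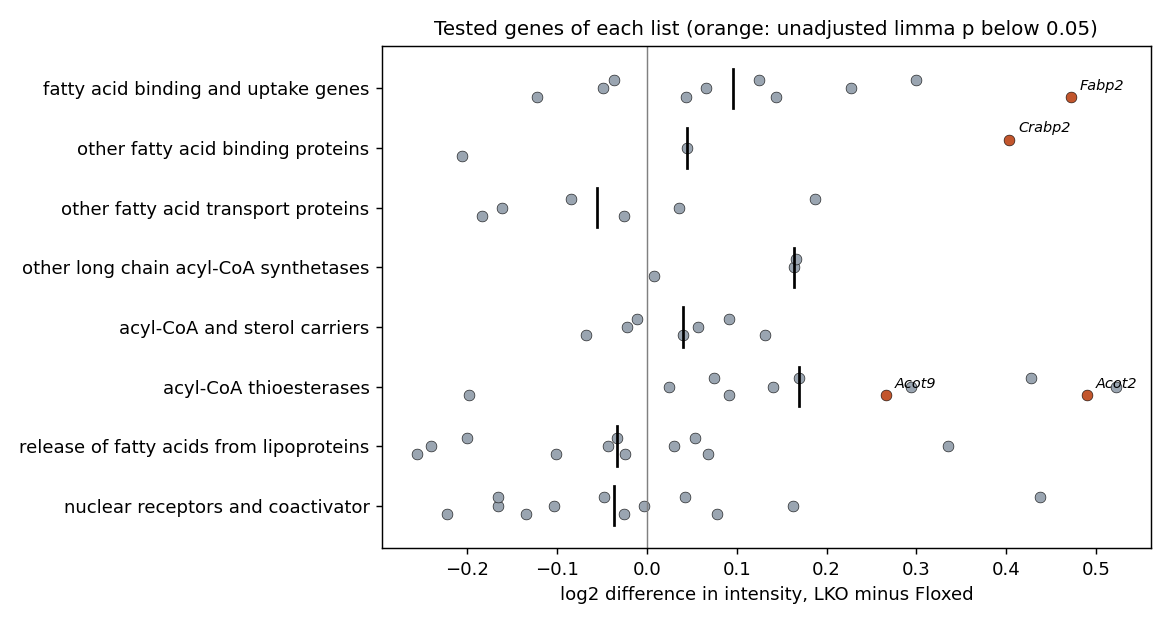
Log2 difference in intensity, LKO minus Floxed, for every tested gene of the 10 and of the 7 lists of the fatty acid route, with a black bar at the median of each list and orange for an unadjusted limma p below 0.05. *Fabp2*, *Crabp2*, *Acot2* and *Acot9* are the orange points, all to the right of 0.

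Cell markers and clock genes were measured beside these results, and their part in them was not tested. All 10 hepatocyte markers were well above background on every array and 0 were called. The mean deviation of the 9 macrophage genes ran from -0.48 to 0.96 in Floxed and from -0.68 to 0.60 in LKO, with 0 called. *Marco*, which spanned 4.97 log2 units, weighs most in this unscaled mean. The mean deviation of the 10 endothelial genes ran from -0.15 to 0.14 and from -0.075 to 0.084. Of these 10, 4 were positive and 6 negative, with a median of -0.025. *Pecam1* was called higher (0.70, limma adjusted p = 0.273; slide 2, 0.042), 1 of 10 against 8.35% of all genes called. Stellate cells had 10 genes tested and red blood cells 5, with 0 called. Of 10 pancreas acinar genes 4 were tested, 3 positive and 1 negative, and *Cel*, a lipase, was called higher (0.54, limma adjusted p = 0.273). Without LKO mice 1 and 2, the hepatocyte marker *Apob* (-0.44), the endothelial *Ptprb* (-0.26) and the stellate *Dcn* (-0.20) were called lower. *Pecam1* was then at 0.97 and *Cel* at 0.68 (limma adjusted p = 0.0017 and 0.018), with slide not told apart from genotype. *Per1* was lower in LKO (-1.15, limma adjusted p = 0.257), and so was *Hlf* (-0.28, limma adjusted p = 0.490), whose call was lost without LKO mice 1 and 2 (-0.27). These are 2 of the 7 tested clock genes of the *Rev-erb* and *Dbp* phase, against 3.43% of all genes called lower. Of the 7, 6 were negative and *Nr1d1* was positive (0.39, limma adjusted p = 0.849). Their mean deviation ran from -0.35 to 0.63 in Floxed and from -1.27, in LKO mouse 2, to 0.48 in LKO. Over the 10 genes, r of this mean within genotype ran from -0.47 with *Fabp7* to 0.48 with *Fabp1*. Of the clock genes in phase with *Arntl*, 3 were tested and 0 called, and r of their mean ran from -0.60 with *Fabp1* and -0.59 with *Fabp5* to 0.48 with *Fabp7*.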

How the data were processed

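Total RNA from 12 livers was measured on single-color Agilent arrays. The methods of the study name the RiboPure kit for the RNA, the labels name TRIzol and a Promega column. The authors deposited per array the scanner intensity of each spot, with background and spatial trend removed in the processed intensity, flags for outlier, saturated and dim spots, and a table of quantile normalized intensity. The labels give Feature Extraction 9.5.1.1, the headers 10.7.1.1 and build mm9. No array coordinates are given. The study's methods name log2 values, quantile normalization, a detection filter and limma with a threshold of 0.05 on p.

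From the deposited intensity, control spots (1377 per array) were left out, log2 processed intensity was quantile normalized over 12 arrays, outlier spots (0.298%) were set missing and spots of a probe averaged. Probes had to be well above background on each of the 12 arrays (20403 were), and the brightest probe stood for a gene. Of 28389 probes with a RefSeq accession, 94.3% matched a RefSeq gene table (GRCm38.p6). Groups and replicate numbers came from the sample titles, slides from the array barcode. Limma 3.58.1 (R 4.3.3, lmFit and eBayes, no covariate, Benjamini-Hochberg over 16915 genes) was the test. It was tested on simulated data. Exact two-sided permutation tests used all 924 arrangements, with 0.0022 the smallest p possible. Python 3.11.15, numpy 2.4.6, pandas 2.3.3 and scipy 1.17.1 did the rest. The number of arrays limits the precision.

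Members and lists were chosen with earlier results of these data known. Named genes are the 10 genes, *Phgdh*, called genes of the pathway lists, the 3 genes nearest to each of the 10 by r, and markers whose list is given. Other genes of the pathway lists that are named without a call were chosen after their values were seen. Alternatives covered scaling, background, the authors' table, filters, probes, threshold, the methods' t-test, slide, replicate number and each array left out. Added after seeing the data were the same for pathway lists, correlations under other scalings, and the fit without LKO mice 1 and 2.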

Additional observations from a re-analysis of the deposited data

Results flagged for a closer look

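The 64 groups of 6 values examined were the genes listed at the start, *Phgdh*, *Crabp2*, *Acot2*, *Acot9* and the list means, in each genotype. The genes nearest by r and the single markers were not examined in this way. Of the 64 groups, 1 held a value whose gap to its neighbor exceeded Dixon's 95% limit for 6 values. By chance alone about 1 in 20 groups would. *Slc27a5* in LKO mouse 3 was at 17.16 on the log2 scale, with the next LKO mouse at 16.97 and the lowest at 16.88, a gap of 0.678 of the range. On the second *Slc27a5* probe the same mouse was the highest of the LKO group too, at 15.81. No cause was tested.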

How the results depend on the processing

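Genes called numbered 1413, with 832 higher and 581 lower. The count was 885 with no normalization between arrays, 2791 without the filter on dim probes, 317 with slide as a fixed block, 88 when a log2 change of at least 1 was also asked for, and 0 after adjustment. Scaling to the 75th percentile gave 1127 higher and 316 lower. The methods' t-test called 1236 genes, and 1 after Benjamini-Hochberg adjustment. Slide as a random block gave 9 genes after adjustment. Leaving out each array in turn gave 1103 to 1838 genes. Of the 10 genes, 0 were called with no normalization, with slide as a fixed block, after adjustment or with the added change of at least 1, and 0 to 2 with each array left out. Pathway genes called went from 3 to 0 with no normalization, after adjustment and with the added change of at least 1, to 1 with the methods' t-test and with slide as a fixed block, and to between 1 and 4 with each array left out. Without LKO mice 1 and 2 these counts were 2173, 2 and 4, and the differences of *Fabp5* and *Fabp7* were 0.52 and -0.23.

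The sign turned for *Fabp5* (-0.67), *Fabp7* (0.26), *Slc27a4* (0.12) and *Acsl1* (-0.043) with slide as a fixed block, for *Fabp7* with normexp background (0.035), for *Slc27a5* at the 75th percentile (-0.0076) and with no normalization (-0.026), and for *Acsl1* as the mean of its probes (-0.019). With each array left out, *Fabp5* lay between -0.12 and 0.61, *Fabp7* between -0.14 and 0.097 and *Acsl1* between -0.038 and 0.14. The r of *Fabp1* and *Cd36* was -0.19 at the 75th percentile. Causes were not tested. *Fabp1*, *Fabp4* and *Slc27a2* kept their direction and stayed uncalled under all 26 alternatives, and *Fabp2* and *Cd36* kept their direction. Same-numbered mice of the 2 genotypes correlated between -0.24 and 0.32 in their deviations. Their animal numbers in the titles were adjacent in 6 of 6 cases and the groups were littermates, but no source used here says that a number marks a litter, and the numbers were not taken as a pairing. With the replicate block 1428 genes, 1 of the 10 and 4 pathway genes were called, with *Fabp2* among them (limma adjusted p = 0.401) and *Crabp2* not (limma adjusted p = 0.682), and 2 of 6 Floxed mice had their own number as the nearest LKO mouse. Signal over background was low for *Phgdh*, at percentile 8.34 of mean intensity among tested genes.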
